A study of Mus musculus with 12 samples.

Results

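Fast signalling between neurons of the forebrain runs on receptors for glutamate and for GABA, and RNA of 36 genes that encode their subunits was followed here in newborn mice. The genes were chosen as a family by name, with earlier results of these data known: subunits of the AMPA, NMDA, kainate and delta glutamate channels, the metabotropic glutamate receptors, and the GABA-A and GABA-B receptors. Of the 36 genes, 35 had a probe set that named a single gene, out of 19938 genes in all. Grin1, the obligatory NMDA subunit, had none and was not analysed here. Only Gabrb2 had more than 1 probe set, and for it the probe set with the highest mean was used. Of the 35 genes, 31 passed the filter on dim genes and were tested among 14195 genes, and Grin2a, Grm8, Gabra6 and Gabrb1 did not pass it.

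The series compared forebrain of 4 genotypes at postnatal day 0, with 3 biological replicates and 1 array per replicate, to model embryonal tumors with multilayered rosettes, which arise in the brains of young children. GBS tumors came from mice of genotype hGFAP-cre::Ctnnb1(ex3)Fl/+SmoM2Fl/+, GS forebrain from hGFAP-cre::SmoM2Fl/+ and GB forebrain from hGFAP-cre::Ctnnb1(ex3)Fl/+. Control forebrain came from Ctnnb1(ex3)Fl/+SmoM2Fl/+ mice, which carry both floxed alleles without Cre, so that in a comparison with Control an effect of Cre cannot be told apart from that of the alleles. The human GFAP promoter drives Cre in radial glia, the precursors of most forebrain neurons and glia, where SmoM2 turns on sonic hedgehog signalling and Ctnnb1 without exon 3 turns on WNT signalling. The tissue holds all cell types of the sample, so in every value below fewer cells of a type and less RNA per cell cannot be told apart. The labels do not say whether animals were pooled.

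AMPA, kainate and NMDA receptors are channels gated by glutamate that let cations in and excite the cell. The metabotropic receptors for glutamate and GABA-B receptors act more slowly through G proteins, and GABA-A receptors are chloride channels. In newborn cortex many neurons are still migrating and forming synapses, chloride gradients make GABA less inhibitory than in the adult, and the subunits of these receptors are exchanged as synapses mature. Progenitors and glia also carry some of the subunits.

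Values are RMA signals on a log2 scale, so a difference of 1 is a 2-fold change. The 35 genes read between 5.18 and 10.81 on single arrays. Arrays of a genotype correlated at 0.974 to 0.984 in Control, 0.956 to 0.989 in GS, 0.98 to 0.989 in GBS and 0.894 to 0.984 in GB, where replicate 2 stood apart. GB replicate 2 was the lowest of all 12 arrays for 8 of the 35 genes and the highest for 9, against 24.9% and 44% of all genes tested. Ptch1, a target of the hedgehog pathway, was higher by 1.43 in GS than in Control and by 2.38 in GBS than in Control, and the WNT targets Axin2 and Lef1 were higher in GBS than in Control by 1.78 and 2.27 (limma adjusted p = 0.00164, 3.87e-06, 2.42e-05 and 3.34e-05). Gli1, another hedgehog target, was higher by 0.32 in GBS than in Control and did not pass (adjusted p = 0.106).

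Receptor subunit genes read lower in the tumors than in Control forebrain for most of the family. So did the median of 1194 olfactory and vomeronasal receptor genes, which forebrain hardly expresses. It was 4.84 to 4.92 in GBS and 5.12 to 5.23 in Control, and its part in the subunit values was not tested. The mean of the 3 GBS arrays lay under the Control mean for 32 of the 35 genes, with Gabra2, Grm3 and Grik2 as the exceptions. Of the 31 tested genes, 3 had a GBS mean above the Control mean and 28 below it, and of all tested genes 41.1% had it above. All GBS arrays read below all Control arrays for 24 genes and above them for 2, Gabra2 and Grm3, and the ranges overlapped for 9. Among the 31 tested genes these counts were 22 below and 2 above, where 35.7% and 28.8% of all tested genes lay below and above. Over the 31 genes the median difference was -0.39, and over all 14195 genes it was -0.10. With p-values adjusted over all 14195 genes (Benjamini-Hochberg) and a threshold of 0.05, limma called 4 of the 31 lower, Grin3a, Grik3, Grm5 and Gabbr2, and 0 higher, where 4.35% of all genes were called lower and 11% higher. At an unadjusted p under 0.05, 14 were lower and 0 higher, where 2657 and 2854 of all 14195 genes were. GBS was the genotype with the lowest mean for 31 of the 35 genes, against 49.5% of all tested genes, and GS was the genotype with the highest mean for 19, against 13.6%.

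**Figure D1:**
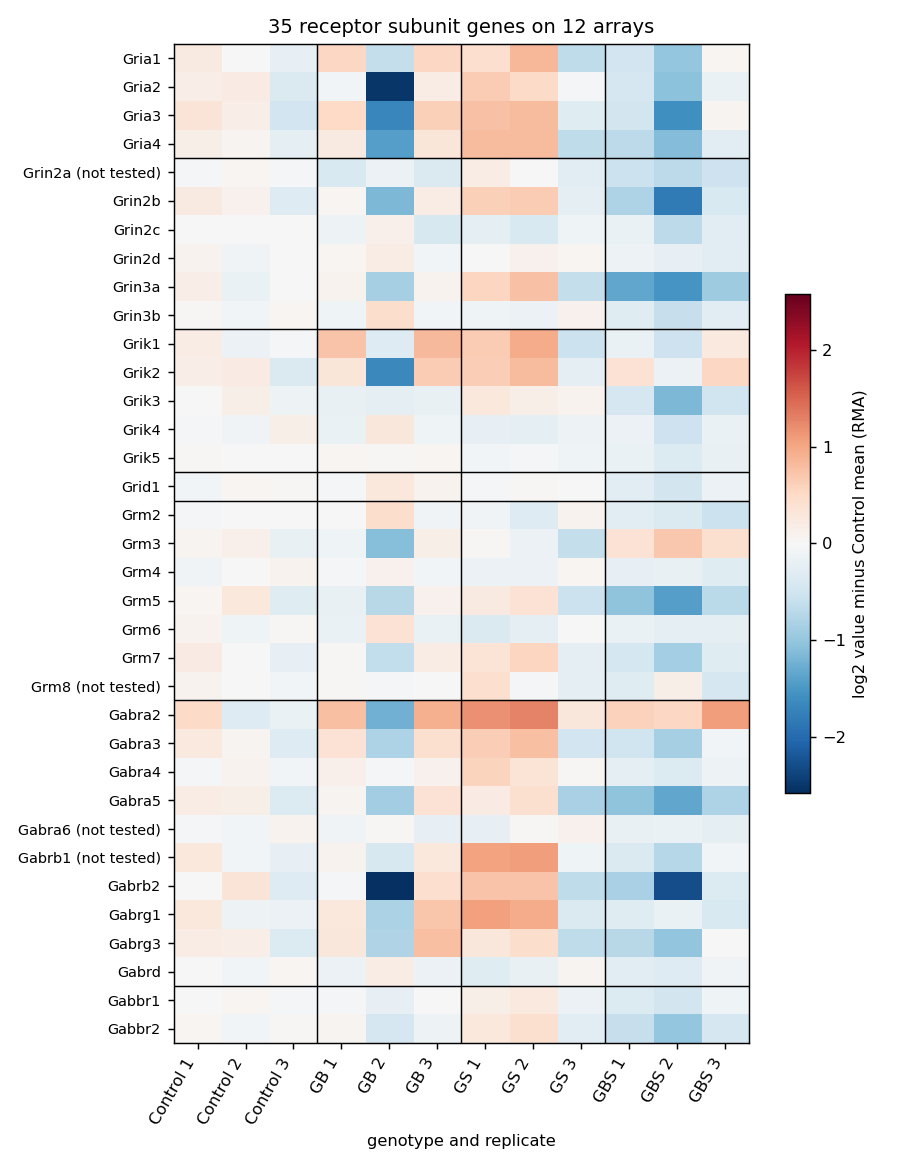
Log2 value of each of the 35 subunit genes (rows, grouped by receptor type) on each of the 12 arrays (columns) minus the gene's Control mean, in colour from blue (lower) to red (higher). The GBS columns are mostly blue except for Grm3, Gabra2 and Grik2, and GB replicate 2 differs from the other GB arrays.

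The 4 calls against Control depended on single arrays, as did calls over all genes. All 4 ended without Control replicate 1 and without Control replicate 2, and all except Grik3 ended without Control replicate 3, GBS replicate 1 or GBS replicate 2. Of all genes, 0.803%, 1.18% and 0.937% were called lower without Control replicates 1, 2 and 3. The shares were 3.21% and 0.549% without GBS replicates 1 and 2, and 4.35% on all arrays. Without GB replicate 2, an array that enters this comparison through the shared estimate of the spread alone, the same 4 genes and 8 others were called lower and Gabra2 and Grm3 higher, where 20.2% and 23% of all genes were called lower and higher.

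Stretches around the starts of subunit genes are printed because WNT and hedgehog signalling act through DNA-binding factors with known motifs, and because REST, a repressor of neuronal genes outside neurons, has a motif built of a left and a right part. A RefSeq table for GRCm38.p6 held 33 promoter windows, each from 250 bases before to 50 after a gene start, for 26 of the 36 genes. The letters searched on both strands were CTTTGAT and CTTTGTT for TCF/LEF, GACCACCCA for GLI with its part CCACCCA counted also on its own, and TCAGCACC and GGACAGC for the REST parts. The first lines give the 250 bases before the start of Gabbr2 (chr4:46991715-46991964, minus strand), a gene lower in GBS, and of Grm3 (chr5:9725353-9725602, minus strand), whose GBS arrays lay above all others. Neither held any of these letters, and both are therefore in lower case throughout. The further lines show stretches with the matched letters in capitals, of Grm2 (chr9:106656316-106656359, minus strand, both REST parts), Gabrb2 (chr11:42421221-42421249, plus strand, TCF/LEF, after the gene start), Grm6 (chr11:50850495-50850524, plus strand, TCF/LEF) and Grik5 (chr7:25072468-25072497, minus strand, GLI part). Those other than that of Gabrb2 lie before the start. All are written from 5′ to 3′ on the strand of the gene.
Gabbr2: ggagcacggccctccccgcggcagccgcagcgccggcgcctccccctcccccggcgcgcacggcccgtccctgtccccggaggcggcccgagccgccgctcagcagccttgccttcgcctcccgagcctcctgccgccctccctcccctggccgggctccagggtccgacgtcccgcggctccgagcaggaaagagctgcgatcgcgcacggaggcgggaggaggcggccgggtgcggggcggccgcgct
Grm3: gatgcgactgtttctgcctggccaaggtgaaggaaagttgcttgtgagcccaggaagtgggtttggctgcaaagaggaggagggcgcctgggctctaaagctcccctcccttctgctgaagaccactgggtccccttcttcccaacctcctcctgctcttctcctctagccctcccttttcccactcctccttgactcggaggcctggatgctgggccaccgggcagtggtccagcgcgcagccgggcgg
Grm2: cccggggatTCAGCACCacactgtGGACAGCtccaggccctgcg
Gabrb2: ccgccgctgcccCTTTGATgttttggtac
Grm6: gtccctggacttCTTTGTTcctcttctcgg
Grik5: gctttcttttctCCACCCAgtcctcacccc
CTTTGAT stood in the window of Gabrb2 and in 3.73% of all 32851 windows, and CTTTGTT in that of Grm6 and in 5.85% of all. GACCACCCA stood in no member's window and in 0.253% of all. CCACCCA was present for Gabrg3, Grik2, Grik5 and Grm7, and in 9.3% of all windows. TCAGCACC stood upstream of Grm2 alone among the subunit genes (1.65% of all windows), 7 bases before GGACAGC, which was also present for Gria2 (6.56% of all). The Gabbr2 stretch is 80.8% G and C and the Grm3 stretch 62.4%, and the median over windows was 60.7% for the subunit genes and 52.7% for all. A match of letters is a description and does not show binding.

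AMPA receptor subunits carry most fast excitatory current. The 4 genes Gria1 to Gria4 averaged lower in GBS than in Control, by 0.48 to 0.70 on the log2 scale, and none passed the test. Gria2, whose edited RNA makes AMPA channels nearly impermeable to calcium, read 10.31, 10.37 and 9.77 in Control, 10.08, 7.63 and 10.34 in GB, 10.81, 10.65 and 10.10 in GS, and 9.71, 9.09 and 9.98 in GBS. GBS overlapped Control through the third Control array, and the GB mean of 9.35 ± 1.49 (SD, n = 3) carried the low value of replicate 2. Gria4, common in young neurons, read 7.92, 7.84 and 7.52 in Control and 7.08, 6.63 and 7.47 in GBS, which did not overlap, and the difference was -0.70 ± 0.485 (SE, adjusted p = 0.266). Gria1 differed by -0.48 and Gria3 by -0.66 (adjusted p = 0.362 and 0.388), with overlapping arrays. Against GS, with its replicate 3 below the other GS arrays, the 4 differences were -0.70 to -1.08 and none passed.

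NMDA receptors need glutamate and a co-agonist and admit calcium. All 5 tested genes of this group read lower on every GBS array than on every Control array, as 35.7% of all tested genes did. Grin3a, a glycine-binding subunit that lowers the calcium flow and is most abundant in early postnatal brain, read 7.67, 7.32 and 7.50 in Control, 7.58, 6.64 and 7.58 in GB, 8.05, 8.24 and 6.89 in GS, and 6.15, 5.98 and 6.58 in GBS. Every GBS array was below every other array. Grin3a fell in GBS against Control by 1.26 ± 0.35 (SE, 2.39-fold, adjusted p = 0.0359) and against GS by 1.49 ± 0.35 (2.81-fold, adjusted p = 0.0349), and it differed from GB by -1.03 (adjusted p = 0.0684). Over 23 other settings, single arrays left out included, the adjusted p against Control ran from 0.000309 to 0.152. Grin2b, the main partner of Grin1 before birth, read 7.96, 7.83 and 7.40 in Control and 6.93, 5.90 and 7.33 in GBS. The groups lay close at the edge, GBS replicate 2 was lowest by far, and the difference of -1.01 ± 0.425 had an adjusted p of 0.111.

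The other NMDA genes differed less. Grin2c, Grin2d and Grin3b, which belong largely to cerebellar, early interneuron and motor neuron receptors, were lower in GBS than in Control by 0.37, 0.21 and 0.39 on the log2 scale, with adjusted p of 0.116, 0.125 and 0.0955. Grin2a, the subunit that replaces Grin2b after birth, passed the filter on 1 array only and was not tested. It read 6.16, 6.24 and 6.17 in Control, 5.79, 6.03 and 5.82 in GB, 6.38, 6.20 and 5.89 in GS, and 5.63, 5.50 and 5.65 in GBS, so that GBS lay below all other groups. In a fit without the filter its difference from Control was -0.60 (adjusted p = 0.0119 over 19938 genes).

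Kainate receptors modulate transmission and excitability, and Grik1, Grik2 and Grik3 form channels by themselves while Grik4 and Grik5 need such a partner. Grik3 read 7.42, 7.58 and 7.29 in Control, 7.23, 7.20 and 7.24 in GB, 7.71, 7.58 and 7.52 in GS, and 6.99, 6.27 and 6.91 in GBS. GBS was below all other arrays, and the GB arrays were below those of Control and GS. Grik3 fell in GBS against Control by 0.70 ± 0.165 (SE, 1.63-fold, adjusted p = 0.0189) and against GS by 0.88 ± 0.165 (1.84-fold, adjusted p = 0.0124), and the difference from GB was -0.50 (adjusted p = 0.0642). Without Control replicate 1 or 2 the adjusted p against Control was 0.0592 or 0.0681, and without GS replicate 1 or 2 that against GS was 0.0552 or 0.0505. In all other settings tried, both calls held.

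Grik2 stood apart from Grik3. It read 8.72, 8.75 and 8.17 in Control, 8.85, 6.89 and 9.21 in GB, 9.18, 9.36 and 8.31 in GS, and 8.91, 8.39 and 9.07 in GBS, with all groups overlapping. The GBS mean was 0.25 ± 0.511 above Control (SE, adjusted p = 0.704), and the sign turned under quantile normalization (-0.02) and with the median of olfactory and vomeronasal receptor genes as a covariate (-1.08). Grik1 and Grik4 differed from Control by -0.16 and -0.29 (adjusted p = 0.756 and 0.146), and Grik1 passed the filter on 6 of the 12 arrays. Without GBS replicate 2 the Grik1 difference was 0.04.

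Grik5 and Grid1 passed the test against GB alone. Grik5 read 7.40, 7.36 and 7.37 in Control, 7.43, 7.41 and 7.43 in GB, 7.31, 7.35 and 7.26 in GS, and 7.21, 7.02 and 7.19 in GBS. The groups did not overlap and stood in the order GB, Control, GS and GBS, over a narrow range. It fell in GBS against GB by 0.28 ± 0.0778 (SE, 1.21-fold, adjusted p = 0.0427). Leaving out any single array except GS replicate 3 ended that call (adjusted p up to 0.163). Grid1, whose product binds glycine and spans the synaptic cleft through cerebellins, read 6.97, 7.30 and 7.11 in GB and 6.73, 6.54 and 6.87 in GBS. It fell by 0.42 ± 0.108 (SE, 1.34-fold, adjusted p = 0.0333), with GBS below every other array, and the call ended without any Control array, GB replicate 2, GS replicate 2, GBS replicate 1 or GBS replicate 2 (adjusted p up to 0.142). Against Control, Grik5 and Grid1 differed by -0.24 and -0.31 (adjusted p = 0.0614 and 0.0725).

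**Figure D2:**
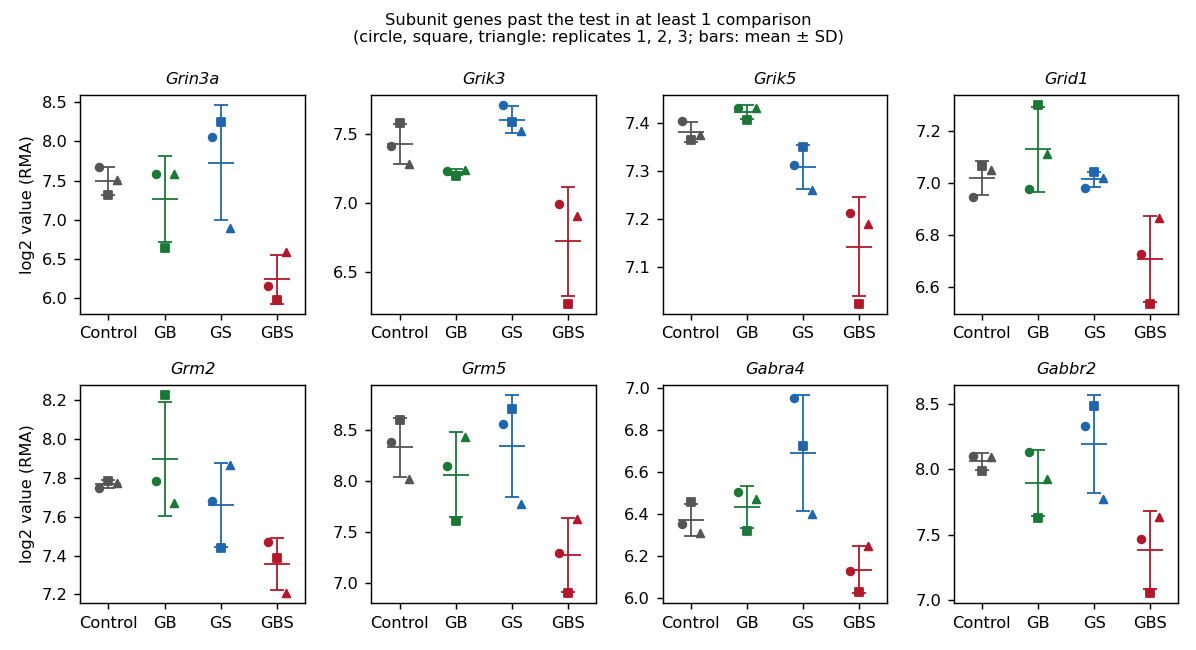
Log2 value (RMA) on each array of the 8 subunit genes called in at least 1 comparison, by genotype, with symbols for replicates 1 to 3, the group mean as a line and bars of 1 SD (n = 3). GBS arrays lie below every Control array in all 8 panels, and for Grin3a, Grik3, Grik5, Grid1 and Gabra4 below every array of the other genotypes.

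Among the metabotropic glutamate receptors Grm5 fell in the tumors, and Grm3 read higher there without passing the test. Grm5, coupled to phospholipase C and present on young neurons and progenitors, read 8.38, 8.60 and 8.02 in Control, 8.14, 7.61 and 8.43 in GB, 8.56, 8.71 and 7.77 in GS, and 7.30, 6.90 and 7.63 in GBS. GBS was below Control and GS and met the low array of GB. Grm5 fell against Control by 1.05 ± 0.289 (SE, 2.08-fold, adjusted p = 0.0342, from 0.0006 to 0.157 over 23 settings), and the difference from GS was -1.07 (adjusted p = 0.0602). Grm3, which lowers cyclic AMP and is carried by astrocytes as well as neurons, read 8.005, 8.07 and 7.74 in Control, 7.83, 6.84 and 8.10 in GB, 7.97, 7.78 and 7.33 in GS, and 8.31, 8.64 and 8.34 in GBS. It was the only subunit gene with every GBS array above all other arrays. The difference was 0.49 ± 0.281 against Control, 0.74 ± 0.281 against GS and 0.84 ± 0.281 against GB (SE, adjusted p = 0.196, 0.178 and 0.0659), so none passed. Without GB replicate 2 the first and the second had adjusted p of 0.0352 and 0.0169 (the first from 0.0154 to 0.46 over 23 settings), and with the olfactory and vomeronasal receptor median as a covariate the first was -0.31.

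Grm2, the close relative of Grm3, was low in the tumors. It read 7.75, 7.78 and 7.77 in Control, 7.79, 8.23 and 7.67 in GB, 7.68, 7.44 and 7.86 in GS, and 7.47, 7.39 and 7.21 in GBS, where GBS met GS replicate 2. It fell against GB by 0.54 ± 0.151 (SE, 1.46-fold, adjusted p = 0.0433) and differed from Control by -0.41 (adjusted p = 0.0816). The call against GB ended without GB replicate 2, where the difference was -0.38 (adjusted p = 0.0863), and also without any Control array, GB replicate 1, GS replicate 1 or any GBS array (adjusted p up to 0.134). Grm7 and Grm4, which act mostly on axon terminals, and Grm6, the glutamate receptor of bipolar cell dendrites in the retina, were lower in GBS than in Control by 0.55, 0.24 and 0.22 on the log2 scale (adjusted p = 0.136, 0.0974 and 0.264). Grm8 was too dim to test, at 5.56 to 6.43.

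GABA-A receptors are assembled from alpha, beta and other subunits, and Gabra2 differed from its neighbours. Gabra2, a main alpha subunit before synapses mature, read 8.69, 7.85 and 8.01 in Control, 8.96, 6.94 and 9.10 in GB, 9.36, 9.46 and 8.47 in GS, and 8.77, 8.72 and 9.26 in GBS. The GBS arrays were just above Control and within the spread of GS and GB. The GBS difference from Control was 0.74 ± 0.505 and that of GS 0.92 ± 0.505 (SE, adjusted p = 0.261 and 0.645), and the first was -0.52 with the olfactory and vomeronasal receptor median as a covariate. Without GB replicate 2 the GBS difference had an adjusted p of 0.0483 (0.0266 to 0.499 over 23 settings).

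The other 7 tested GABA-A genes averaged lower in the tumors than in Control. Gabra4, a subunit of receptors outside synapses, read 6.35, 6.46 and 6.31 in Control, 6.51, 6.32 and 6.47 in GB, 6.95, 6.73 and 6.40 in GS, and 6.13, 6.03 and 6.25 in GBS. GBS was below every other array. Gabra4 fell against GS by 0.56 ± 0.131 (SE, 1.47-fold, adjusted p = 0.0351), a call that leaving out any single array except GB replicate 2 and GS replicate 3 ended (adjusted p up to 0.16), and it differed from Control by -0.24 (adjusted p = 0.186). Gabra5, the alpha subunit of tonic inhibition in the hippocampus, read 7.74, 7.70 and 7.19 in Control and 6.50, 6.21 and 6.75 in GBS without overlap. Its difference was -1.06 ± 0.367 (adjusted p = 0.0718, from 0.000202 to 0.242 over 23 settings, and 0.0152 without GB replicate 2). Gabra3 was lower by 0.48 (adjusted p = 0.333) with overlap.

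Gabrb2, a beta subunit of many adult GABA-A receptors, had the widest spread in the family. It read 9.19, 9.53 and 8.87 in Control, 9.16, 6.62 and 9.63 in GB, 9.93, 9.94 and 8.55 in GS, and 8.36, 6.90 and 8.85 in GBS. GBS replicate 2 and GB replicate 2 were far below the rest, and the highest GBS array lay just under the lowest Control array. The difference from Control was -1.16 ± 0.737 (SE, adjusted p = 0.232), and its 3 probe sets gave -1.16, -1.17 and -0.86. Gabrg1, Gabrg3 and Gabrd, which encode gamma and delta subunits, differed from Control by -0.29, -0.58 and -0.24 (adjusted p = 0.569, 0.273 and 0.173). Gabrb1 and the cerebellar subunit Gabra6 were too dim to test.

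Several GABA-A genes lie side by side in the genome. In RefSeq order Gabrg1, Gabra2, Gabra4 and Gabrb1 follow each other on chromosome 5, with 1 coding gene between Gabra2 and Gabra4. Their GBS differences from Control were -0.29, 0.74, -0.24 and, without the filter, -0.39, so the sign differed among neighbours, and none of the 4 passed. On chromosome 7 the neighbours Gabrg3 and Gabra5 were at -0.58 and -1.06, and neither passed.

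**Figure D3:**
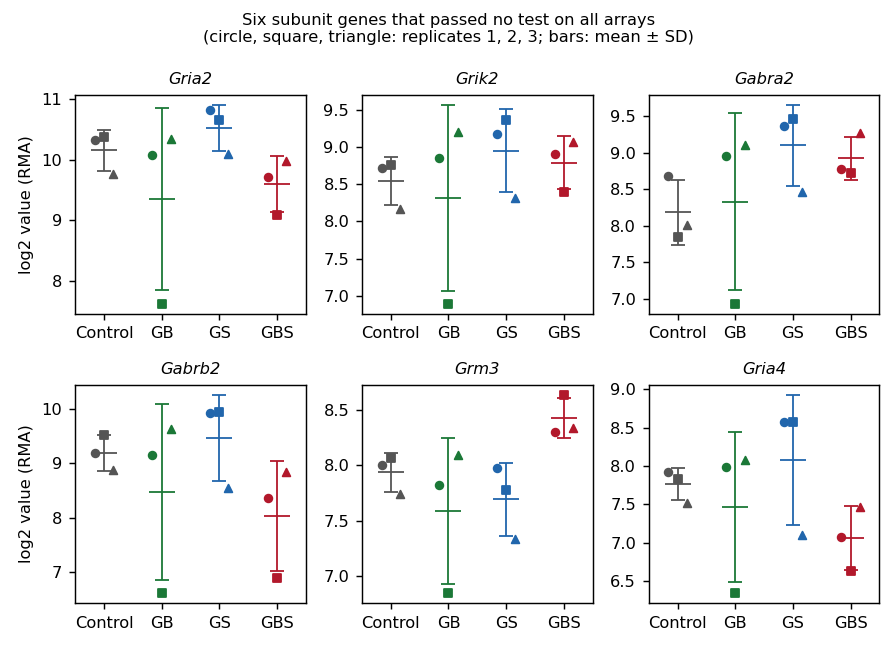
Log2 value (RMA) on each array of 6 subunit genes that passed no test on all arrays, by genotype, with symbols for replicates 1 to 3, the mean as a line and bars of 1 SD (n = 3). GB replicate 2 is the lowest array in every panel, and Grm3 is the panel where all GBS arrays are highest.

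GABA-B receptors need Gabbr1, which binds GABA, and Gabbr2, which brings the pair to the surface and couples it to the G protein. Gabbr2 read 8.10, 7.99 and 8.09 in Control, 8.13, 7.63 and 7.93 in GB, 8.33, 8.48 and 7.77 in GS, and 7.47, 7.05 and 7.63 in GBS. GBS was below Control and GS, and its highest array lay at the level of GB replicate 2. Gabbr2 fell against Control by 0.68 ± 0.202 (SE, 1.6-fold, adjusted p = 0.0457) and against GS by 0.81 ± 0.202 (1.75-fold, adjusted p = 0.045). The call against Control was near the threshold and ended under 10 of 23 other settings (adjusted p up to 0.194), among them without any Control array, GB replicate 1 or 3, GS replicate 1, and GBS replicate 1 or 2. Gabbr1 read 8.19, 8.23 and 8.12 in Control and 7.83, 7.71 and 8.07 in GBS, without overlap, at a difference of -0.31 ± 0.128 (adjusted p = 0.108).

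The comparisons of GBS with GS and with GB ask what the added allele does, and both use the same GBS arrays as the comparison with Control, so they do not stand alone. Against GS the mean was lower in GBS for 34 of the 35 genes, Grm3 being the exception. Of the 31 tested genes, 1 had a higher mean in GBS than in GS, against 43% of all tested genes. Of the 31 tested genes, limma called Grik3, Grin3a, Gabra4 and Gabbr2 lower and 0 higher, where 1.51% of all genes were lower and 3.56% higher. The GBS arrays were below all GS arrays for 13 of the 31 genes and above for 1, against 12.4% and 16.5% of all genes. All 4 calls ended without GS replicate 1 or GS replicate 2, and without GBS replicate 1, GBS replicate 2 or any of the Control arrays only Grik3 was called. Of all genes, 0.359% and 0.317% were called lower without GS replicates 1 and 2. The shares were 0.867% and 0.331% without GBS replicates 1 and 2, and 0.867% to 0.909% without a Control array. Without GB replicate 1 or GB replicate 3 the calls were Grik3 and Grin3a, and without GBS replicate 3 the call of Gabra4 ended. In these 3 settings 149, 169 and 195 of all 14195 genes were called lower. Without GS replicate 3 the calls numbered 8 lower and 0 higher, where 2.33% and 2.49% of all genes were called, and without GB replicate 2 they numbered 9 lower and 1 higher, where 4.09% and 7.75% of all genes were called.

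Against GB, 31 of the 35 means were lower in GBS. Of the 31 tested genes, 4 had a higher mean in GBS than in GB, against 40.5% of all tested genes. Limma called 3 of the 31 tested genes lower, Grid1, Grik5 and Grm2, and 0 higher, where 3.12% of all genes were lower and 9.6% higher. The GBS arrays were below all GB arrays for 10 of the 31 genes and above for 1, against 23.7% and 24.2% of all genes. Without GB replicate 2, 3 genes were called lower and none of the earlier 3 was among them: Gabra5 (-1.28), Grin3a (-1.35) and Grm5 (-1.01), at adjusted p of 0.0316, 0.0286 and 0.0496, and 0 higher, where 1.29% of all genes were called lower and 6.88% higher.

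**Figure D4:**
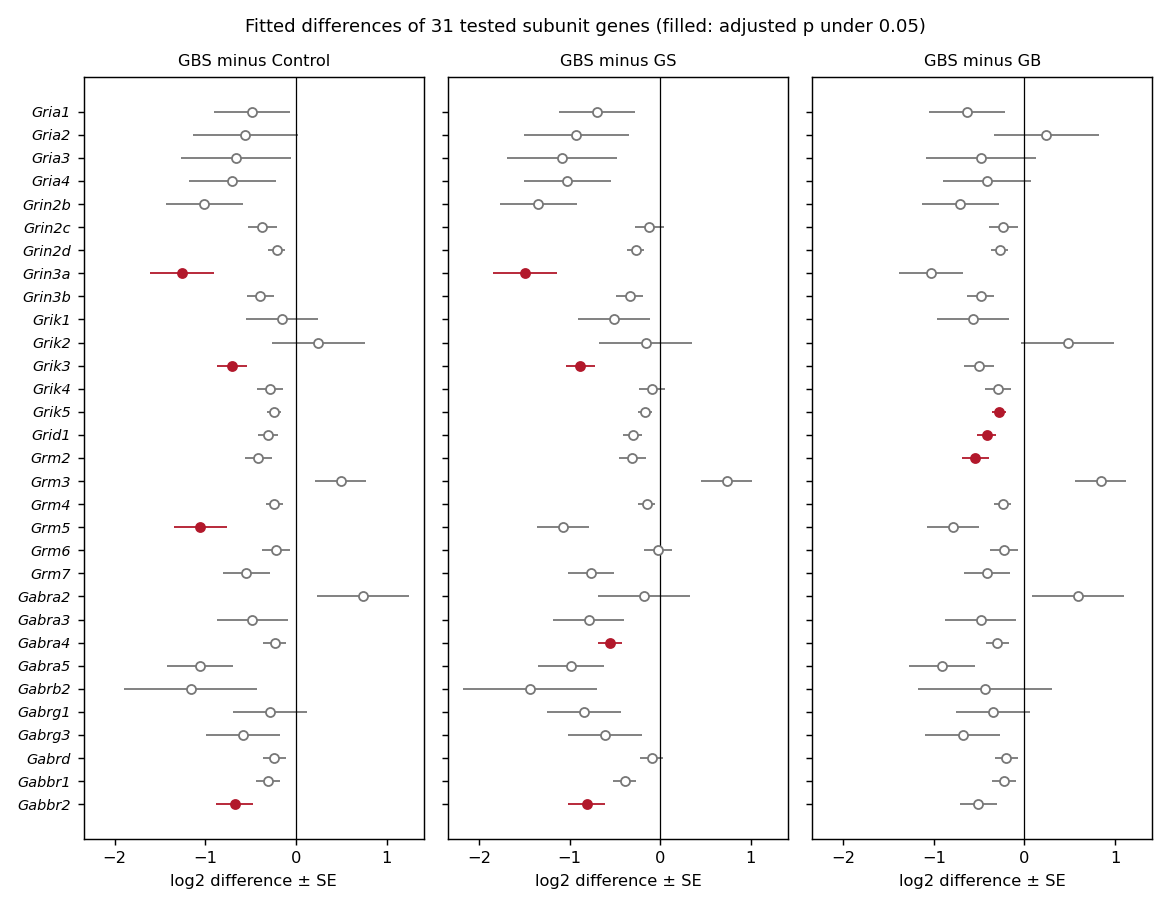
Fitted log2 difference ± SE of the 31 tested subunit genes for GBS minus Control, GBS minus GS and GBS minus GB, with filled points at an adjusted p under 0.05. Most points lie left of 0, and Grm3 lies right of it in all panels.

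With either allele alone no subunit gene passed the test. In GS against Control the median difference of the 31 genes was 0.13. Limma called 0 higher and 0 lower, where 0.0211% and 0% of all genes were called. At a raw p under 0.05 there were 1 higher and 0 lower, where 508 and 331 of all 14195 genes were. The GS arrays were below all Control arrays for Grin2c, Grik4 and Grik5, and above them for none, where 9.43% and 8.09% of all genes were. In GB against Control the median was -0.04, and limma called 0 genes, the same as for all genes (0%). At an unadjusted p under 0.05 there were 0 of the 31, where 129 of all 14195 genes were higher and 27 lower. Among the 31 genes, Grik5 was above and Grik3 below Control on every GB array, where 3.01% and 1.09% of all genes were. The spread between arrays limits what these comparisons could detect, and it limits those of GBS equally. The estimate of the spread is shared, so the standard errors of the 31 genes ran from 0.0778 to 0.737 in every pairwise comparison.

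The interaction asks whether the Ctnnb1 allele had another effect with SmoM2 than without it. Its median over the 31 genes was -0.62 and over all genes -0.03. Limma called 0 of the 31 (0.324% of all genes higher, 0.00704% lower). At an unadjusted p under 0.05, 6 were lower and 1 higher, where 471 and 687 of all 14195 genes were. Grm3 had the highest value, 1.09, and Grin3a the lowest, -1.26 (adjusted p = 0.48 and 0.517).

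Genes that travel with the receptors were taken as a second list: 31 auxiliary subunits and scaffolds, of which 29 had a probe set and 28 were tested. In GBS against Control limma called 7 lower and 1 higher, where 4.35% and 11% of all genes were called, with a median of -0.31. Shisa6, which holds AMPA receptors at synapses, read 7.45, 7.09 and 7.18 in Control, 7.08, 6.67 and 7.23 in GB, 7.30, 7.42 and 7.09 in GS, and 6.04, 6.16 and 6.64 in GBS. Every GBS array was below every other array. It fell by 0.96 ± 0.186 against Control (SE, 1.95-fold, adjusted p = 0.00798), by 0.99 against GS and by 0.72 against GB (adjusted p = 0.0125 and 0.0343), and the call against Control held in all 23 settings. The AMPA receptor partners Cacng3, Cacng4, Cnih2, Grip2 and Shisa7 fell by 0.85, 0.35, 0.47, 0.39 and 0.56 on the log2 scale, and the GABA-B partner Kctd8 fell by 0.41 (adjusted p = 0.0184 to 0.0457). Cacng5, another AMPA partner, rose by 0.39 ± 0.0873 (adjusted p = 0.0158), with GBS at 7.61 to 7.66 and Control at 7.13 to 7.34. Without GBS replicate 2 Shisa6 was the only call of this list, where 0.549% of all genes were called lower and 4.45% higher. The call of Cacng5 ended also without Control replicate 1 or 2 (adjusted p up to 0.0638). Without Control replicates 1, 2 and 3 the lower calls numbered 1, 1 and 2, where 0.803%, 1.18% and 0.937% of all genes were called lower, and without GB replicate 2 they numbered 12 (20.2% of all genes).

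Genes for the making, packing and clearing of glutamate and GABA, 23 in all with 21 tested, went both ways. In GBS against Control 5 rose and 3 fell, where 11% and 4.35% of all genes did, with a median of -0.18. Slc1a3, the glutamate transporter of radial glia and astrocytes, read 7.97, 7.80 and 7.57 in Control and 8.97, 9.05 and 9.07 in GBS, and rose by 1.25 ± 0.164 (SE, adjusted p = 0.00105, under 0.05 in all 23 settings). Glul, the glutamine synthetase of glia, read 8.05, 8.51 and 8.12 in Control and 9.12, 9.72 and 9.32 in GBS, and rose by 1.16 ± 0.22 (adjusted p = 0.00722), a call that ended only with the olfactory and vomeronasal receptor median as a covariate (adjusted p = 0.0545). Both are genes of glial and progenitor cells, and Slc1a3 is also in the radial glia list below. Slc1a2, a second glial glutamate transporter, Glud1, which breaks down glutamate, and Slc12a2, the chloride importer of young neurons and progenitors, rose by 0.74, 1.21 and 1.84 (adjusted p = 0.0238, 0.0278 and 0.03). The vesicular glutamate transporters Slc17a7 and Slc17a8 and the GABA transporter Slc6a11 fell by 0.50, 0.37 and 0.49 on the log2 scale (adjusted p = 0.0123, 0.0365 and 0.0342). Without GBS replicate 2 the calls were Slc1a3 and Glul alone, where 4.45% of all genes rose and 0.549% fell. The rises numbered 3, 2 and 2 and the falls 0, 1 and 0 without Control replicates 1, 2 and 3, where 5.65%, 6.41% and 4.66% of all genes rose. Without GBS replicate 1 there were 3 rises (9.42% of all genes), without GBS replicate 3 there were 2 (7.71%), without GS replicate 2 there was 1 fall (2.61%), and without GB replicate 2 there were 7 rises and 9 falls (23% and 20.2% of all genes).

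Markers of the cells in the tissue moved beside the subunits. Their calls below are for GBS against Control, where 4.35% of all tested genes were called lower and 11% higher. The lists share genes and are not separate evidence. Slc1a2 is an astrocyte marker and a handling gene, and Gad1, Gad2 and Slc32a1 are interneuron markers and handling genes. The forebrain identity list shares Pax6 with the radial glia list, and Dlx1 and Dlx2 with the interneuron list. The mean of the 35 subunit genes was 7.26 to 7.50 in Control, 6.86 to 7.56 in GB, 7.15 to 7.74 in GS and 6.71 to 7.19 in GBS. The mean of 15 neuron markers was 8.78 to 9.06, 7.81 to 9.03, 8.65 to 9.43 and 8.07 to 8.77 in the same order, with 3 of 15 called lower in GBS than in Control and 0 higher. The mean of 9 markers of dividing cells was 6.87 to 7.08, 6.64 to 7.20, 7.40 to 7.76 and 8.47 to 9.31, with 8 of 9 higher. Of 10 interneuron markers 4 were lower (7.77 to 8.01 in Control, 6.94 to 7.49 in GBS), of 9 tested radial glia markers 5 were higher and 1 lower (7.45 to 7.57 and 7.96 to 8.01), and of 7 markers of oligodendrocyte precursors 3 were lower (7.22 to 7.27 and 6.59 to 6.86). Of 7 tested genes of forebrain identity, Emx2, Lhx2 and Pax6 were higher, by 1.88, 0.58 and 1.48, and Dlx1 and Tbr1 were lower, by 0.54 and 1.09 on the log2 scale, with a median of -0.24 (mean level 7.50 to 7.59 and 7.74 to 7.81). Of the lists for other cells, 1 higher and 2 lower were called among 6 tested astrocyte markers, 1 higher among 5 of choroid plexus and among 3 of meninges, and 0 among 6 of microglia, 7 of blood vessels and 1 of red cells. Dcn, of the meninges list, read 6.36 to 7.46 in Control and 10.63 to 10.67 in GBS. In GB it read 7.35 to 8.85 and in GS 6.43 to 7.68. Ttr, of the choroid plexus list, was uneven within genotypes. It read 9.96 on Control replicate 3, 10.21 on GB replicate 3, and 9.92 and 9.49 on GS replicates 1 and 2. On the other arrays, all of GBS included, it read 5.63 to 6.39. The part of these cells in the subunit values was not tested.

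**Figure D5:**
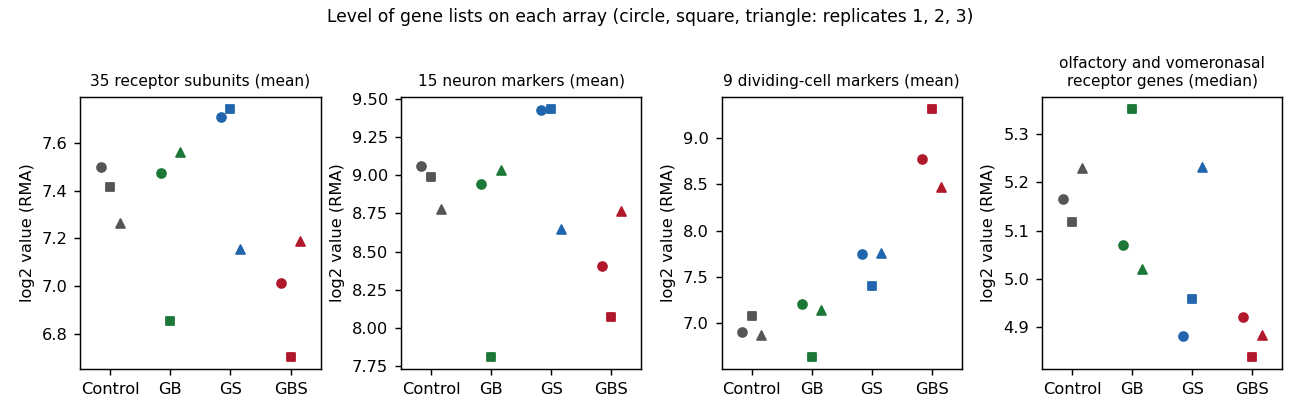
Level on each array, by genotype and replicate (symbols), of the 35 subunit genes, 15 neuron markers and 9 markers of dividing cells (means of log2 values) and of the olfactory and vomeronasal receptor genes (median). GB replicate 2 and GBS replicate 2 are the lowest arrays of their genotypes in the subunit and neuron panels, and the markers of dividing cells are highest in GBS.

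GBS replicate 2 was the lowest of the 12 arrays for 20 of the 35 genes, against 28.4% of all tested genes, and GS replicate 2 was the highest for 16, against 6.44%. The median of 1194 olfactory and vomeronasal receptor genes, which forebrain hardly expresses, was 5.07, 5.35 and 5.02 in GB, 4.88, 4.96 and 5.23 in GS, 5.17, 5.12 and 5.23 in Control, and 4.92, 4.84 and 4.88 in GBS. This median was lower on every GBS array than on every Control array, as were 22 of the 31 tested subunit genes. It was highest on GB replicate 2, with GS replicate 3 and Control replicate 3 next, and the subunit mean was lowest of its group on each of these 3 arrays. The part of this in the subunit values was not tested.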

How the data were processed

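Trizol-extracted total RNA of newborn mouse forebrain was biotinylated and put on Affymetrix arrays, 1 per replicate, per the labels' protocols. The submitters' processing notes name RMA and Affymetrix Expression Console, and the authors deposited the resulting log2 values. RMA subtracts background, normalizes between arrays and summarises probes, and it compresses differences of dim genes. The log2 scale was read from the range of the values, 2.82 to 13.83, and the sources used here do not give the software version, genome build or annotation. Array medians ran from 6.52 to 6.69, and no array copied another, the smallest median absolute difference being 0.102.

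Of 35556 probe sets, a platform annotation listed 23410, 21789 with 1 gene symbol and 1621 with several, which were not used. Symbols were matched to a RefSeq table of GRCm38.p6 for 21698. A gene was represented by its probe set with the highest mean, and tested if at least 3 of the 12 arrays had it above their 40th percentile. The 4 genotype means were estimated over the 12 arrays by limma 3.58.1 (lmFit, eBayes; R 4.3.3), with 8 residual and 2.9 prior degrees of freedom, two-sided, with Benjamini-Hochberg adjustment over 14195 genes. Every adjusted p is from limma. The 12 arrays are labelled as biological replicates, and p-values measure the spread between them.

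The subunit genes, the lists of partners, of transmitter handling and of cell type markers, and the rule for naming genes were chosen with earlier results of these data known. Values on all arrays were to be given for genes called in any comparison and for the 4 with the highest means, with up to 6 called genes of each list. Grip2, Cnih2, Slc6a11 and Slc17a8, and the array values of Gria4, Grin2a, Grin2b, Grm3, Gabra5 and Gabbr1, were added after their values were seen. The fit was tested on simulated data with known changes in GBS against Control. It recovered 17% of genes changed by 0.5 on the log2 scale, 78.5% of those changed by 1 and 94.5% of those changed by 2. The other settings were 11 changes of filter, scaling, model or arrays, and each of 12 arrays left out in turn, 23 in all.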

Additional observations from a re-analysis of the deposited data

How the results depend on the processing

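Counts are genes called at an adjusted p under 0.05 in limma, written as higher and lower, and a count of 0 is at that threshold. Where a direction or a comparison is left out, its count was near that on all arrays. Such a count was 0 only where that on all arrays was 0. On all arrays the subunit genes had 0 and 4 in GBS against Control, 0 and 4 against GS and 0 and 3 against GB, the partners 1 and 7, 1 and 1, and 1 and 4, and the handling genes 5 and 3, 1 and 1, and 3 and 2. All were at 0 and 0 in the other comparisons. In GB against Control the counts of these lists were 0 in all 23 alternatives. Among the 31 tested subunit genes, signs turned against Control with the olfactory and vomeronasal receptor median as a covariate for Gabra2 (-0.52), Gabrd (0.066), Grik2 (-1.08), Grm3 (-0.31) and Grm6 (0.18), under quantile normalization for Grik2 (-0.018), and with single arrays left out for Grik1 (-0.36 to 0.036). Over the settings, differences shrank at most to -0.021 for Grin3b, -0.014 for Grik4, -0.066 for Grin2c, -0.069 for Grm4 and -0.083 for Grm2. Others grew, at most to -2.89 for Gabrb2 and -2.14 for Grin3a. The cause was not tested.

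With array weights the subunit genes had 2 and 18 in GBS against Control and 16 and 6 in GS against Control. They had 1 and 21 against GS, 1 and 17 against GB, and 1 and 17 in the interaction. Of all genes, 25.4% and 29.1% were called in GBS against Control and 29.6% and 28.8% in GS against Control. The shares were 12.6% and 13.1% against GS, 14.6% and 6.78% against GB, and 3.47% and 4.68% in the interaction. Partners then had 5 and 14, 7 and 5, 4 and 12, 4 higher, and 3 and 4 in the same order, and handling genes 9 lower, 9 and 3, 5 and 7, 5 and 4, and 4 lower. Without GB replicate 2, GS replicate 3 and Control replicate 3 the subunit genes had 2 and 18, 6 higher, 1 and 18, 1 and 19, and 11 lower, partners 5 and 13, 2 higher, 3 and 11, 4 and 8, and 1 and 1, and handling genes 8 lower, 4 higher, 4 and 5, 5 and 4, and 2 lower. Those 3 arrays had the lowest subunit mean of their genotypes and no GBS array was left out. These counts therefore depend on the subunit values themselves. Of all genes, 23.5% and 18.9% were called in GBS against Control and 9.86% and 2.21% in GS against Control. The shares were 8.2% and 8.77% against GS, 17.1% and 7.09% against GB, and 0.845% and 2.06% in the interaction. With the receptor median as a covariate the subunit genes had 18 lower against Control, 18 against GS, 13 against GB, and 1 and 4 in the interaction, where 7.37%, 8.89%, 3.73% and 0.726% of all genes were called lower. Partners had 2 higher, 3 and 11, 2 higher and 1 higher, and handling genes 1 higher against Control, 4 lower against GS, and 1 and 1 against GB. Of all genes, 5.56%, 5.95%, 3.68% and 1.03% were called higher against Control, GS and GB and in the interaction.

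With arrays of the compared groups alone the subunit genes had 2 and 14 against Control, 2 lower against GS and 0 against GB, where 24.4% and 21.8% of all genes were called against Control and 0.888% lower against GS, partners 4 and 12, 0 higher, and 0 and 0, and handling genes 9 lower, 2 higher, and 0 and 0. Of all genes, 3.56% were called higher against GS, and 0.542% higher and 0% lower against GB. With arrays centred on their medians the subunit genes had 1 lower against Control and 1 against GS, partners 3 lower, 2 higher and, against GB, 2 lower, and handling genes 0 higher against GS and 1 lower against GB. Of all genes, 2.87%, 0.986% and 1.8% were then called lower against Control, GS and GB, and 3.19% higher against GS. Quantile normalization gave partners 2 lower against GS and 0 higher against GB, and handling genes 3 higher against Control and 1 lower against GB. Of all 14195 genes, 177 were then lower against GS, 950 higher and 277 lower against GB, and 1208 higher against Control. The trend and robust fit gave partners 2 lower against GS, and handling genes 0 and 3 against GS and 4 lower against GB. In that fit 555 and 252 of all 14195 genes were called against GS, and 551 lower against GB. With replicate numbers as a block, the subunit genes had 1 lower against Control, 1 against GS and 0 against GB, partners 2 lower, 0 higher, and 0 and 1, and handling genes 3 higher, 0 higher and 0 lower. Of all genes, 7% and 1.34% were then called against Control, 2.14% and 0.62% against GS, and 4.61% and 0.5% against GB. The labels do not say whether the numbers pair the arrays. Deviations of arrays with the same number correlated at -0.818 to 0.739 over 18 pairs and those of other pairs at -0.755 to 0.833 over 36. Ranges this wide show no pairing and cannot settle whether there was one.

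With each array left out in turn, subunit genes called lower ran from 0 to 12 against Control, 0 to 9 against GS and 0 to 4 against GB, and higher from 0 to 2, 0 to 1 and 0 to 1. Partners ran from 1 to 12, 0 to 6 and 0 to 4 lower and 0 to 4, 0 to 3 and 0 to 3 higher. Handling genes ran from 0 to 9, 1 to 4 and 0 to 4 lower and 2 to 7, 0 to 5 and 1 to 6 higher. Of all 14195 genes, 78 to 2865, 45 to 580 and 25 to 1045 were lower in the same order. Those higher were 631 to 3268, 247 to 1100 and 396 to 2199. With 3 arrays per group, a gene that did not pass may still differ, and signal over background was not used here.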

Other observations

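Subunit genes took their highest value on different arrays. GS replicate 1 was the highest of the 12 arrays for Gria2, Grin2a, Grik3, Grm8, Gabra4 and Gabrg1, and GB replicate 2 for Grin2c, Grin2d, Grin3b, Grik4, Grid1, Grm2, Grm4, Grm6 and Gabrd. Of all tested genes, 7.59% were highest on GS replicate 1 and 44% on GB replicate 2. GB replicate 2 was the lowest for Gria2, Gria3, Gria4, Grik2, Grm3, Gabra2, Gabrb2 and Gabrg1, and for 24.9% of all tested genes. On that array subunit genes thus lay at opposite ends, as did the tested genes as a whole. GBS replicate 2 was the lowest for 20 of the subunit genes and the highest for Grm3 alone, against 28.4% and 24.3% of all tested genes.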
